A study of Mus musculus with 18 samples.

Results

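The 10 genes described here bring amino acids into the cell or make asparagine and cysteine, and they were read in RNA-seq libraries of mouse marrow-derived mesenchymal stem cells (MSC), adherent cells of the bone marrow stroma that can become fat or bone cells. Slc7a5, Slc3a2, Slc7a1, Slc7a3, Slc6a9, Slc1a4 and Slc38a2 encode transporters or their subunits, and Asns, Cth and Cbs encode enzymes. They were taken by gene symbol from a table of 54347 genes, and all 10 were found. Membership rests on the symbols with no threshold on a measured value, but the set was drawn up with earlier results of these data known. Cbs was too low to be given an adjusted p in 6 of the 7 comparisons below, so 9 genes were tested there and 10 in the other comparison.

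Amino acid carriers of the plasma membrane decide which amino acids a cell can draw from its medium. When amino acids run short or the endoplasmic reticulum is stressed, kinases phosphorylate the translation factor eIF2alpha, and the transcription factor ATF4 is then made and raises many transporter and amino acid synthesis genes, an arrangement called the integrated stress response. Asns, Slc3a2, Slc7a5, Slc7a1, Slc6a9, Slc1a4, Slc38a2 and Cth are commonly listed among the genes that respond to ATF4.

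The libraries formed 6 groups of 3, all of cells from male C57BL/6J mice. The paper describes these cells as a primary line that its laboratory made from the marrow of 6 mice. In the first experiment untransfected cells were left as control or received CK666 or cytochalasin D (CytoD). CK666 inhibits the Arp2/3 complex, which nucleates branched actin, and cytochalasin D is a fungal toxin that binds the growing ends of actin filaments. In the second experiment all cells were transfected, with control siRNA (siControl), with siRNA against Arp4 (siArp4), the actin-related protein encoded by Actl6a, or with that siRNA followed by CK666 (siArp4+CK666). No group of siControl cells with CK666 was analysed here, so transfection and loss of Arp4 cannot be told apart wherever the CK666 effects of the experiments are compared. The paper names distinct preparations for each culture condition and ties no replicate number to an animal. The p-values therefore measure the spread between preparations of the shared line.

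Library totals ran from 18075610 to 24733212 estimated counts. Actl6a, the siRNA target, had 720, 1127 and 841 normalized counts in the siControl libraries, 48.8, 57.2 and 19.0 after Arp4 siRNA, and 9.52, 22.9 and 17.9 after Arp4 siRNA and CK666. The siControl libraries differed more among themselves than the replicates of any other group, with a chi-square per degree of freedom between them of 120 to 425 against at most 108 elsewhere. The 108 was CK666 replicate 1 against replicate 2. CK666 replicate 1 gave 67.1 against replicate 3, while replicates 2 and 3 gave 13.9. Among 14 marrow stromal markers 13 had a count above 0 in at least 1 library of every group, and Thy1 was at 0 in all 18 libraries. Lepr had 1 to 36 counts, Eng had 5 to 60, and Nt5e had at most 8 and was at 0 in 5 libraries. The summed stromal markers moved with treatment, at 10231 to 10969 CPM (counts scaled to the library total) in control, 5176 to 6368 in CK666, 14693 to 15307 in CytoD, 5845 to 12494 in siControl, 11239 to 12849 in siArp4 and 6081 to 7529 in siArp4+CK666, and their part in the results below was not tested. Leukocyte markers (11 genes) summed to at most 19.7 CPM, with the pan-leukocyte gene Ptprc at no more than 1 count. In siArp4+CK666 9 of them were detected, against 5 or 6 in the other groups. Adgre1 and Tyrobp were each at 0 in 17 libraries and reached 12 and 6 counts in siArp4+CK666. Lyz2 reached 179 counts in that group and at most 81 elsewhere, and the part of such RNA in the results was not tested. Endothelial markers (5 genes) summed to at most 1.26 CPM and erythroid markers (6 genes) to at most 0.444. In bulk RNA, fewer cells of a kind and less RNA per cell cannot be told apart.

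ATF4 acts with C/EBP proteins at an element whose core can be written TGATGNAA, or TTNCATCA on the other strand. A search of windows from 250 bases before to 50 bases after the annotated start found it in 2 of the 10 windows that the RefSeq promoter table of GRCm38.p6 holds for 7 of the genes, against 3.97% of all 32851 windows. These 2 windows belong to Asns and Slc1a4. Slc7a5, Slc7a3 and Cth had no window. For each window with a match, the 120 bases that end with it are given 5′ to 3′ on the gene's strand with the match in capitals. The Asns run lies at chr6:7693225-7693344 on the minus strand and its match begins 23 bases before the start in the RefSeq table. The Asns gene span given below begins farther upstream, at 7693254, so the match lies inside that span. The Slc1a4 run lies at chr11:20332710-20332829 on the minus strand and its match begins 4 bases before the start, in the opposite direction.
Asns: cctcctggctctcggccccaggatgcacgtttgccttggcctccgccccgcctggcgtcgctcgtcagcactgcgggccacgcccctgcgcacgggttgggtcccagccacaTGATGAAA
Slc1a4: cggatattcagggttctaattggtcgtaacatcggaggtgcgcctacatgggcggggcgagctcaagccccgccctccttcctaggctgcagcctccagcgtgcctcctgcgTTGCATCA
A match describes letters in a window, and binding was not measured in these data.

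In untreated cells the 10 genes spanned a wide range of levels. Levels are set side by side as CPM divided by the kilobases of the longest annotated transcript, and errors are SD over 3 libraries. Asns, which makes asparagine from aspartate and glutamine, was the highest at 107 ± 2.3. Slc7a5 (62.2 ± 2.4), Slc38a2 (59.1 ± 1.9) and Slc3a2 (52.2 ± 0.81) followed, and the libraries of Slc7a5 and Slc38a2 overlapped, so those genes were not ordered by these data. Slc7a1 lay at 13.2 ± 0.92, Slc1a4 at 7.57 ± 0.33, Slc6a9 at 3.67 ± 0.57 and Cth at 1.57 ± 0.14. Slc7a3 (0.0760 ± 0.022) and Cbs (0.00753 ± 0.0075) were close to 0. With the union of exons as the length, Slc3a2 (41.6) and Slc38a2 (40.9) changed places and Asns stayed first at 78.6.

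**Figure D1:**
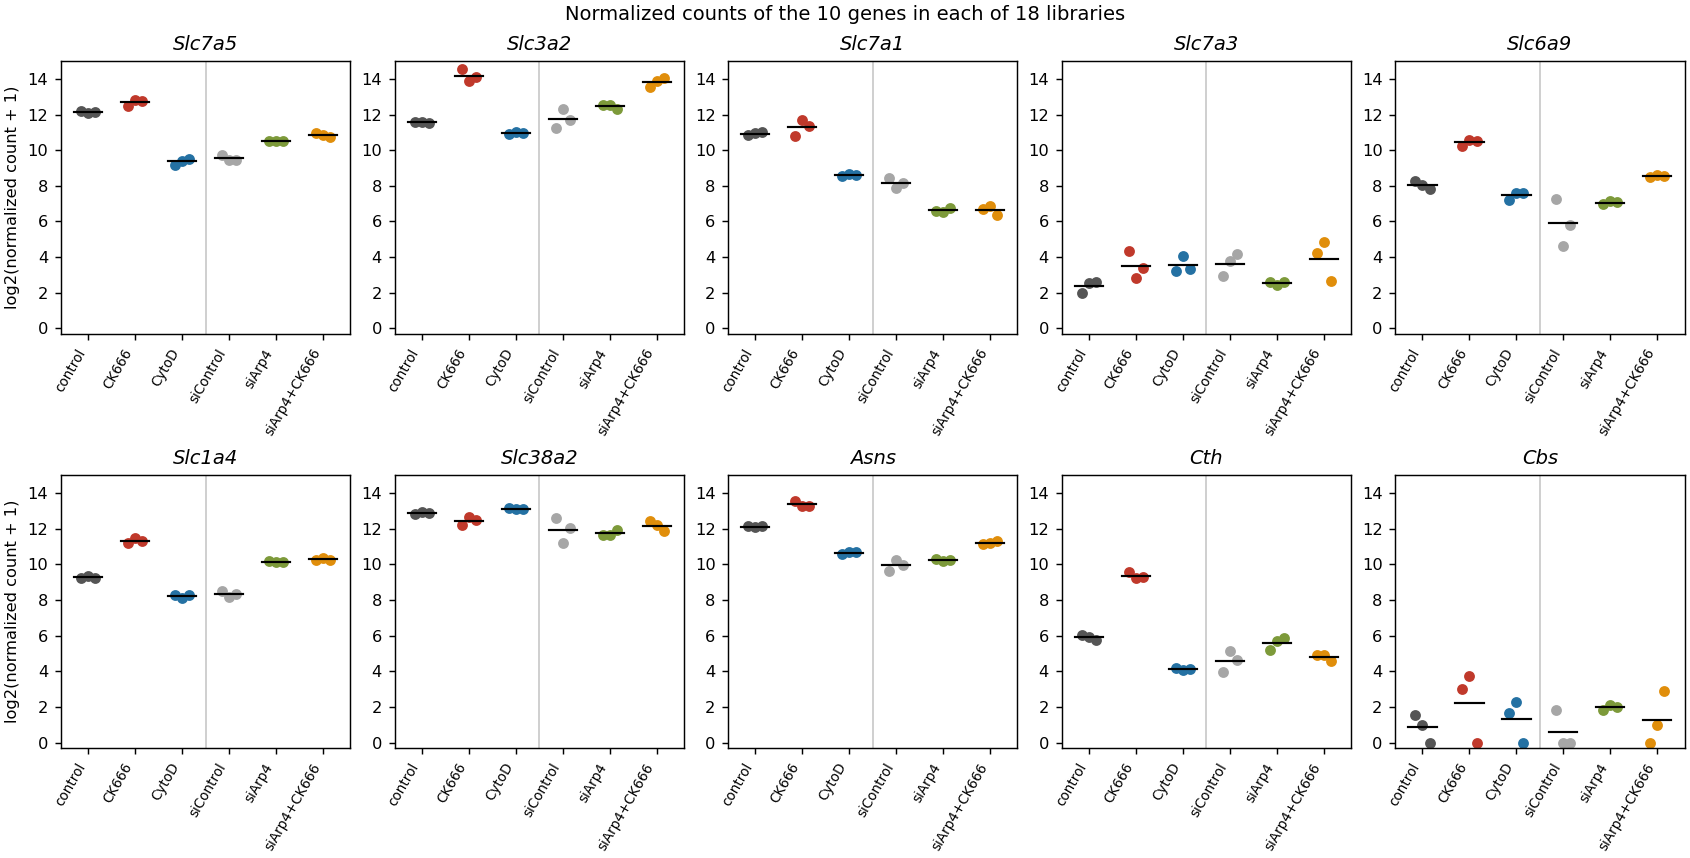
Normalized counts of each of the 10 genes in the 18 libraries, as log2(normalized count + 1) on the vertical axis, with 1 point per library, a bar at the mean of 3, and a line between the experiments, which were scaled separately. For 7 genes the CK666 points lie well above the CytoD points, while Slc38a2 shows the CytoD points above the CK666 points and Slc7a3 and Cbs lie near 0.

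The first question the design asks is what blocking actin branching or capping actin filaments does to transcription. For the amino acid genes the answer differed by drug. Calls required a log2 fold change beyond 1 in either direction together with an adjusted p below 0.01 (Wald test of DESeq2, Benjamini-Hochberg over all genes). With CK666, 5 of the 9 tested genes were called, all of them higher (Slc3a2, Slc6a9, Slc1a4, Asns and Cth), where 4.89% of all 14597 tested genes were called higher and 11.0% in either direction. With CytoD, 5 of 9 were called, all of them lower (Slc7a5, Slc7a1, Slc1a4, Asns and Cth), where 4.32% of 13717 were called lower and 9.12% in either direction. The median log2 fold change of the tested genes of the set was 1.44 with CK666 and −1.04 with CytoD, against 0.01 and 0.01 over all tested genes. The comparisons share their control libraries.

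Slc7a5 and Slc3a2 encode the light and the heavy chain of the LAT1 carrier, which takes up large neutral amino acids such as leucine and exports glutamine. Slc7a5 (ENSMUSG00000040010.10, chromosome 8, 121881150 to 121907694, minus strand) had normalized counts of 4701, 4306 and 4537 in control, 5631, 7305 and 6825 with CK666, and 582, 684 and 723 with CytoD. The 3 ranges did not overlap. CytoD lowered Slc7a5 6.80-fold (log2 fold change −2.77, SE 0.13, adjusted p = 3.39e-95), rank 2 from the bottom of the 10271 genes that averaged at least 100 normalized counts. With CK666 its log2 fold change was 0.54 (95% interval 0.29 to 0.80, adjusted p = 0.00011), which passed the p threshold and not the fold minimum.

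Slc3a2 (ENSMUSG00000010095.13, chromosome 19, 8706882 to 8723369, minus strand) had its larger change with CK666. Its normalized counts were 3060, 3057 and 2986 in control, 24437, 15195 and 17404 with CK666, and 1933, 2065 and 2007 with CytoD. The CK666 libraries lay far above all others and were the most spread. CK666 raised the gene 6.27-fold (log2 fold change 2.65, SE 0.16, adjusted p = 4.69e-59), rank 25 from the top of the same 10271 genes, whereas the log2 fold change with CytoD was −0.60 (95% interval −0.92 to −0.28, adjusted p = 0.000912) and did not reach the fold minimum.

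The RNA of the LAT1 chains was also compared as a ratio within each library. Slc3a2 over Slc7a5, as a ratio of levels per length, was 0.814, 0.887 and 0.823 in control, 5.43, 2.60 and 3.19 with CK666, and 4.15, 3.77 and 3.47 with CytoD. The ratio was higher in every library with either drug than in the control libraries, with more heavy chain RNA in CK666 and less light chain RNA in CytoD, and the ratio itself was not tested. In transfected cells it was 3.65, 9.02 and 5.92 in siControl, 5.03, 5.10 and 4.28 after Arp4 siRNA, and 7.48, 10.2 and 12.3 in siArp4+CK666. Slc3a2 also pairs with other light chains, among them the product of Slc7a11 described below.

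**Figure D2:**
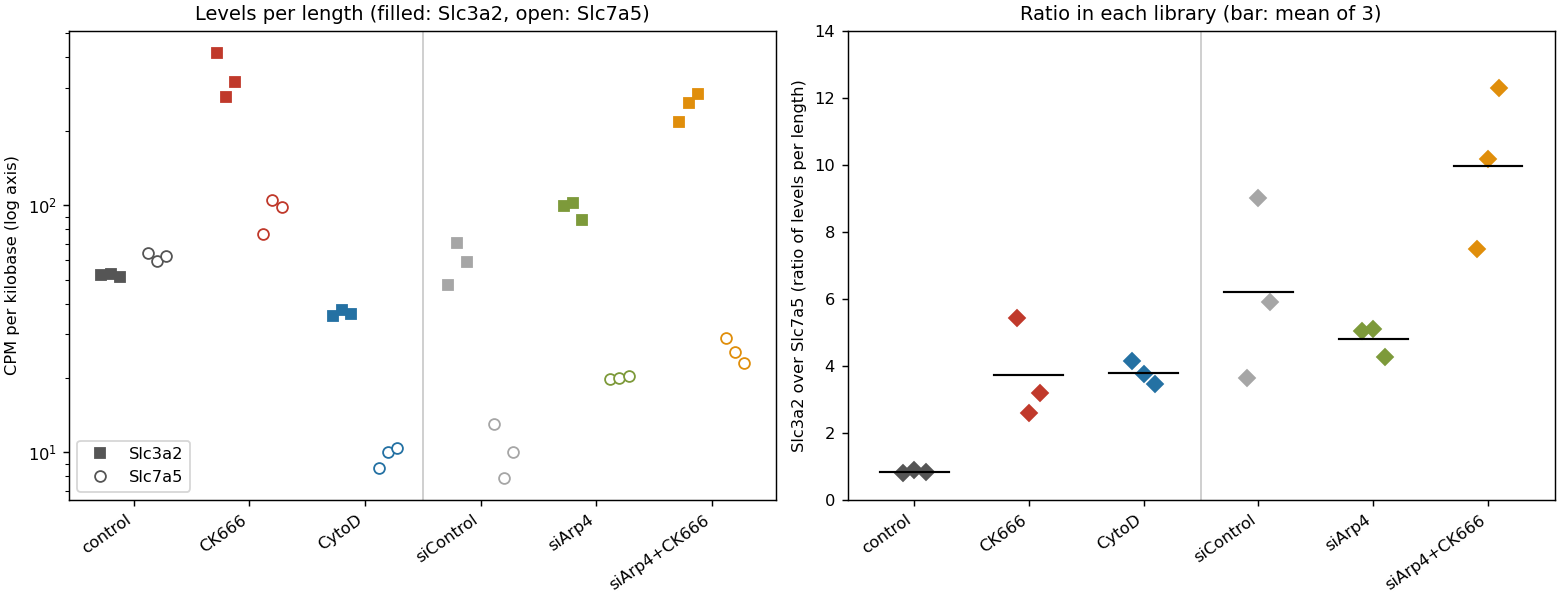
Left, CPM divided by kilobases of length for Slc3a2 (filled squares) and Slc7a5 (open circles) in each library on a log axis; right, the ratio of the levels, with 1 diamond per library and a bar at the mean of 3. The ratio lies between 0.814 and 0.887 in control and at 2.60 or above in every other library.

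Slc7a5 lies inside the span of Gm20388 (chromosome 8, 119910841 to 124345722, plus strand), a long gene model on the other strand. The libraries were unstranded, and although the models share 0 exonic bases, Gm20388 had counts of its own, with a mean of 1376 over the libraries and 0 in 2 of them. Gm20388 rose with CK666 (log2 fold change 1.79, adjusted p = 1.26e-07). With its counts added to Slc7a5 the calls of Slc7a5 in the first experiment did not change, but those in the second did, as given below.

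The cationic amino acid carriers are encoded by Slc7a1 and Slc7a3, which take up arginine, lysine and ornithine. Slc7a1 (ENSMUSG00000041313.14, chromosome 5, 148327410 to 148399904, minus strand) had 1817, 1985 and 2075 normalized counts in control, 1791, 3281 and 2647 with CK666, and 379, 400 and 395 with CytoD. The CK666 range took in the control range, and the CytoD libraries were far below both. CytoD lowered Slc7a1 5.0-fold (log2 fold change −2.32, SE 0.19, adjusted p = 6.55e-31), rank 10 from the bottom, while the log2 fold change with CK666 was 0.39 (95% interval 0.02 to 0.77, adjusted p = 0.0881). Slc7a3 (ENSMUSG00000031297.14, chromosome X, 101079210 to 101086020, minus strand) had 2.90 to 5.17 normalized counts in control, 6.12 to 19.6 with CK666 and 8.50 to 15.5 with CytoD. At these counts its log2 fold changes of 1.44 (95% interval −0.07 to 2.96) and 1.37 (−0.15 to 2.89) were not called.

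Slc6a9 encodes the glycine carrier GLYT1 and Slc1a4 the neutral amino acid carrier ASCT1, which exchanges alanine, serine, cysteine and threonine. Slc6a9 (ENSMUSG00000028542.17, chromosome 4, 117834506 to 117875198, plus strand) had 305, 264 and 221 normalized counts in control, 1209, 1492 and 1476 with CK666, and 149, 195 and 196 with CytoD. CK666 raised it 5.28-fold (log2 fold change 2.40, SE 0.17, adjusted p = 1.79e-43). With CytoD the log2 fold change was −0.55 (95% interval −0.90 to −0.20, adjusted p = 0.00753), short of the fold minimum. The exons of Slc6a9 share 1429 bases with Ccdc24 on the other strand, at a mean of 33.8 counts over the libraries. They share 46 bases with B4galt2, at a mean of 589 counts, so reads may have been assigned to either gene of a pair. In siControl replicates 1, 2 and 3 Slc6a9 had 180, 19 and 59 estimated counts, and Ccdc24 had 7, 80 and 54. Whether reads moved between the genes was not tested.

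Slc1a4 (ENSMUSG00000020142.12, chromosome 11, 20302180 to 20332713, minus strand) responded in both directions. Its normalized counts were 596, 640 and 605 in control, 2313, 2794 and 2562 with CK666, and 305, 278 and 311 with CytoD, with no overlap between the groups. CK666 raised it 4.17-fold (log2 fold change 2.06, SE 0.11, adjusted p = 4.80e-71) and CytoD lowered it 2.06-fold (log2 fold change −1.04, SE 0.12, adjusted p = 4.48e-16). The second value lay just past the fold minimum and was −0.997 without CytoD replicate 2, which ended the call.

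Slc38a2 encodes SNAT2, a sodium-coupled carrier of alanine, glutamine and other small neutral amino acids that is known for its induction by amino acid starvation. Slc38a2 (ENSMUSG00000022462.7, chromosome 15, 96687392 to 96699730, minus strand) did not move with the other carriers. It had 7290, 7683 and 7407 normalized counts in control, 4664, 6318 and 5830 with CK666, and 8967, 8789 and 8808 with CytoD. Its CK666 libraries were the lowest and its CytoD libraries the highest, the reverse of the order seen for the called carriers. The log2 fold change was −0.41 with CK666 (95% interval −0.64 to −0.18, adjusted p = 0.00202) and 0.25 with CytoD (0.02 to 0.48, adjusted p = 0.0846), and neither met the fold minimum.

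Asns and Cth carry the synthesis side. Asns (ENSMUSG00000029752.12, chromosome 6, 7675169 to 7693254, minus strand) had 4540, 4309 and 4471 normalized counts in control, 12129, 9969 and 9946 with CK666, and 1531, 1626 and 1665 with CytoD. CK666 raised it 2.41-fold (log2 fold change 1.27, SE 0.11, adjusted p = 1.34e-31), and it fell 2.76-fold with CytoD (log2 fold change −1.47, SE 0.11, adjusted p = 1.73e-40). The groups did not overlap.

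Cth encodes cystathionine gamma-lyase, which releases cysteine from cystathionine in the last step of transsulfuration, and it had the largest CK666 response of the 10 genes. Cth (ENSMUSG00000028179.12, chromosome 3, 157894248 to 157925077, minus strand) had 64.8, 58.4 and 53.8 normalized counts in control, 745, 600 and 631 with CK666, and 17.0, 15.5 and 16.5 with CytoD. CK666 raised it 11.2-fold (log2 fold change 3.48, SE 0.19, adjusted p = 6.98e-69), which was rank 16 from the top, and CytoD lowered it 3.62-fold (log2 fold change −1.86, SE 0.28, adjusted p = 7.48e-10), rank 28 from the bottom. Cbs, the enzyme of the step before, makes cystathionine from homocysteine and serine. Cbs (ENSMUSG00000024039.15, chromosome 17, 31608894 to 31637238, minus strand) had at most 12.2 normalized counts in any library and was at 0 in at least 1 library of 5 of the 6 groups. No change of Cbs was detectable at this depth.

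The drugs were also set directly against each other. Between CK666 and CytoD 7 of the 10 genes were called, all 7 higher with CK666 (every gene but Slc7a3, Slc38a2 and Cbs), where 5.08% of 15038 tested genes were called higher and 11.8% in either direction. The differences ran from 6.58-fold for Slc7a1 to 40.4-fold for Cth (log2 fold change 5.34, SE 0.26, adjusted p = 2.22e-88), and Cth held rank 3 from the top of 10271 genes. Slc7a5 (9.93-fold), Slc3a2 (9.50-fold), Slc1a4 (8.58-fold), Slc6a9 (7.74-fold) and Asns (6.64-fold) lay between them. Slc7a5 and Slc7a1 owed the difference mainly to their CytoD libraries, and Slc3a2 and Slc6a9 to their CK666 libraries. Slc38a2 had a log2 fold change of −0.66 (95% interval −0.89 to −0.43, adjusted p = 2.01e-07).

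**Figure D3:**
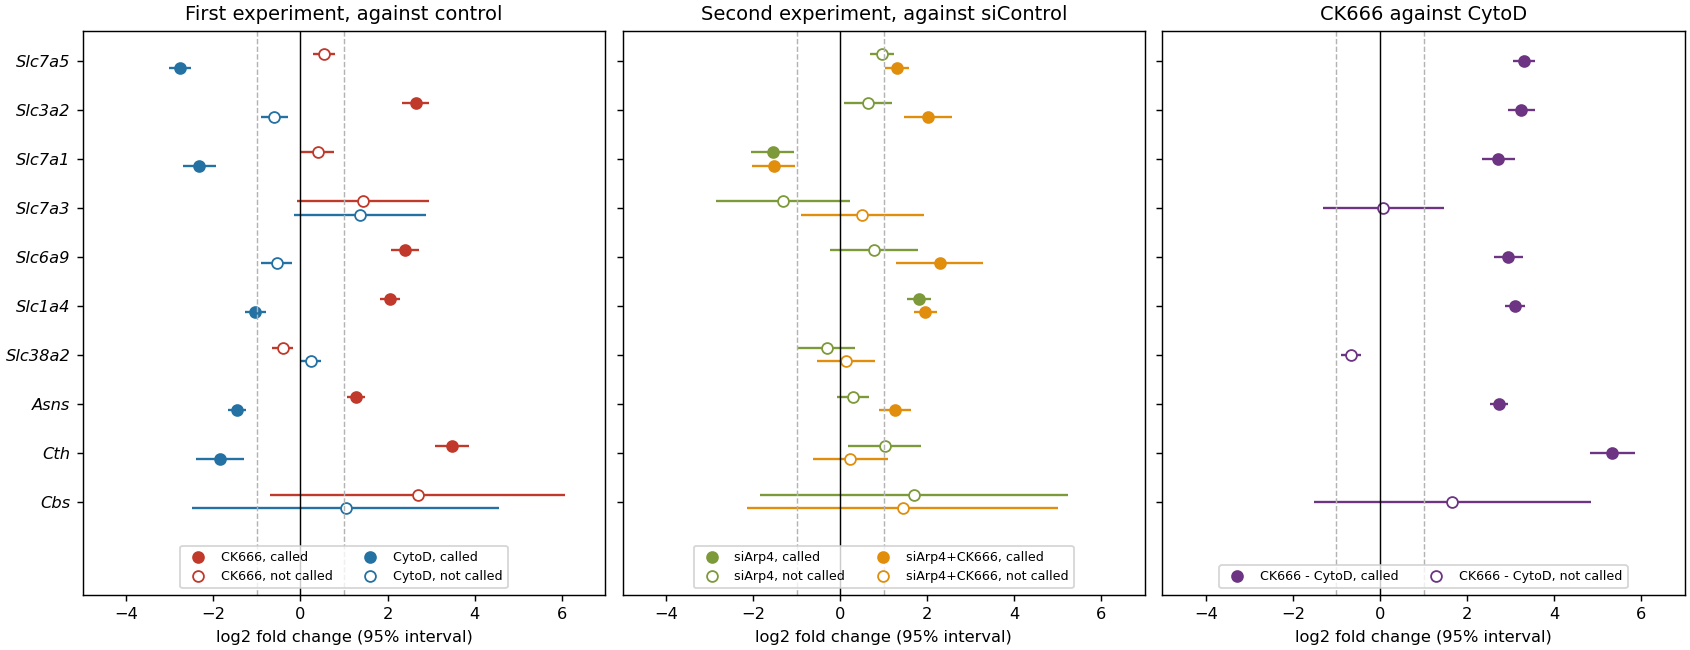
Log2 fold changes of the 10 genes with 95% intervals (normal, from the SE) for CK666 and CytoD against control, for siArp4 and siArp4+CK666 against siControl, and for CK666 against CytoD, with filled points for called genes and dashed lines at a log2 fold change of 1 in either direction. In the left panel 5 CK666 points lie past the right dashed line and called, and 5 CytoD points past the left, with Slc1a4, Asns and Cth in both sets.

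The second experiment followed Arp4 knockdown, without and with CK666. Its starting point was not that of the first. With all 18 libraries on 1 scale, siControl cells had 15.3% of the control level of Slc7a1, 17.2% of Slc7a5, 23.4% of Asns, 29.9% of Slc6a9, 42.1% of Cth, 53.8% of Slc1a4 and 58.6% of Slc38a2, but 124% of Slc3a2. On counts near 0, Slc7a3 stood at 289% and Cbs at 88.7%. These are group means with no test, and transfection and experiment cannot be told apart in them. The Slc6a9 mean is loose, since its siControl libraries ran from 24.6 to 150 on this scale.

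With Arp4 knockdown alone, siArp4 against siControl, 2 of 9 genes were called, Slc1a4 higher and Slc7a1 lower. This share is near that of all 15415 tested genes, of which 16.2% were called, 6.69% higher and 9.49% lower. Slc1a4 had 355, 284 and 318 normalized counts in siControl and 1151, 1120 and 1109 in siArp4, a 3.52-fold rise (log2 fold change 1.82, SE 0.14, adjusted p = 7.50e-37). Slc7a1 had 345, 234 and 290 in siControl and 95.2, 91.8 and 109 in siArp4, a 2.94-fold fall (log2 fold change −1.55, SE 0.25, adjusted p = 6.85e-09). These genes went apart here, although both had fallen with CytoD.

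Slc7a5 had 835, 703 and 711 normalized counts in siControl and 1453, 1470 and 1477 in siArp4, a log2 fold change of 0.97 (95% interval 0.69 to 1.24, adjusted p = 1.70e-10) just under the fold minimum. It was called at 1.60 (adjusted p = 0.00188) with Gm20388 added, a gene at 0 in siControl replicate 1 and at 1484 to 4341 normalized counts in siArp4. The log2 fold changes of Slc3a2 (0.64, 95% interval 0.09 to 1.18), Slc6a9 (0.78, −0.22 to 1.78), Asns (0.29, −0.09 to 0.66), Slc38a2 (−0.31, −0.97 to 0.34), Cth (1.02, 0.19 to 1.86) and Slc7a3 (−1.32, −2.86 to 0.22) were not called. The siControl libraries were widely spread for several of these, at 151, 23.9 and 55.1 for Slc6a9 and 6233, 2336 and 4155 for Slc38a2. Without siControl replicate 1, 4 genes were called, Slc7a5 (1.05) and Slc6a9 (1.70) being added. With all 18 libraries in 1 fit Cth was called (log2 fold change 1.06, adjusted p = 0.00119).

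With CK666 on top of the knockdown, 6 of 9 genes were called against siControl, where 20.4% of 15415 were called. Slc7a5, Slc3a2, Slc6a9, Slc1a4 and Asns were higher, where 8.06% of all genes were, and Slc7a1 was lower, where 12.4% were. Slc3a2 had 2439, 5073 and 3364 normalized counts in siControl, 5848, 5998 and 5051 with Arp4 siRNA and 12181, 14829 and 16953 in siArp4+CK666, and rose 4.04-fold over siControl (log2 fold change 2.02, SE 0.28, adjusted p = 1.02e-11). Slc6a9 had 123, 140 and 133 with Arp4 siRNA and 365, 385 and 378 in siArp4+CK666, and rose 4.87-fold over siControl (log2 fold change 2.29, SE 0.51, adjusted p = 4.16e-05). The Slc6a9 log2 fold change was 3.22 without siControl replicate 1, and ran from 1.86 to that value over the libraries left out, with the call kept. Each library with CK666 lay above each library without it for both genes.

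Asns had 790, 1225 and 986 normalized counts in siControl, 1274, 1174 and 1212 with Arp4 siRNA, and 2295, 2314 and 2530 in siArp4+CK666, and rose 2.38-fold over siControl (log2 fold change 1.25, SE 0.19, adjusted p = 5.64e-10). Its siControl and siArp4 libraries overlapped, and its siArp4+CK666 libraries were above all of them. Slc7a5 had 2035, 1822 and 1723 in siArp4+CK666 and was 2.48-fold over siControl (log2 fold change 1.31, SE 0.14, adjusted p = 5.37e-19), a call that ended with Gm20388 added (log2 fold change 1.19, adjusted p = 0.0237). Slc1a4, at 1215, 1292 and 1221, and Slc7a1, at 105, 116 and 80.1, stayed near their siArp4 levels, with log2 fold changes over siControl of 1.96 and −1.53.

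Within knockdown cells, siArp4+CK666 against siArp4, 1 of 9 genes was called, Slc3a2, 2.60-fold higher (log2 fold change 1.38, SE 0.28, adjusted p = 1.97e-05), where 1.63% of 14098 genes were called higher and 5.75% in either direction. The quasi-likelihood test of edgeR did not call it (adjusted p = 0.0109). With no fold minimum, a rule under which 9.90% of all genes were called, Asns would be added, at a log2 fold change of 0.96 (95% interval 0.59 to 1.34, adjusted p = 9.13e-06). Slc6a9, at 1.51 (0.52 to 2.50, adjusted p = 0.0232), missed the p threshold. It was called without siControl replicate 1 or 2, and with all 18 libraries in 1 fit (1.49, adjusted p = 0.000731). Slc7a5 (0.34, 0.07 to 0.62), Slc1a4 (0.14, −0.12 to 0.40), Slc7a1 (0.03, −0.48 to 0.53), Slc38a2 (0.45, −0.21 to 1.10), Slc7a3 (1.83, 0.30 to 3.35) and Cth (−0.79, −1.62 to 0.03) were not called.

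The difference between the CK666 effects, in knockdown cells minus in untransfected cells, was tested as an interaction over all 18 libraries. It was called for 3 of 9 genes, all with a negative value. Over all 13511 tested genes 2.52% were called negative and 4.42% in either direction. CK666 raised these 3 genes in untransfected cells, so for them a negative value is a smaller rise or a fall in knockdown cells. Over all genes a negative value can also be a larger fall, so the 2.52% does not count smaller effects alone. Cth differed most, by a log2 value of −4.27 (SE 0.37, adjusted p = 3.95e-28), rank 7 from the bottom of 10315 genes. It had 35.4, 50.8 and 57.1 normalized counts with Arp4 siRNA and 29.6, 29.6 and 23.2 in siArp4+CK666, so that its CK666 libraries were the lower ones there, against the 11.2-fold rise in untransfected cells. Slc1a4 differed by −1.92 (SE 0.14, adjusted p = 9.62e-41), and knockdown cells without the drug already had 3.52 times the siControl level. Slc3a2 differed by −1.27 (SE 0.33, adjusted p = 0.00264), and this call was lost with edgeR (adjusted p = 0.0175) and without any of 5 single libraries.

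For the other genes the interaction was not called. It was −0.90 for Slc6a9 (95% interval −1.93 to 0.14), −0.31 for Asns (−0.70 to 0.09), −0.21 for Slc7a5 (−0.53 to 0.12), −0.37 for Slc7a1 (−0.98 to 0.23), 0.85 for Slc38a2 (0.16 to 1.54) and 0.38 for Slc7a3 (−1.62 to 2.37). The interval of Asns leaves room for an effect of CK666 in knockdown cells that is smaller by 0.70 or larger by 0.09, and that of Slc6a9 is wide.

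**Figure D4:**
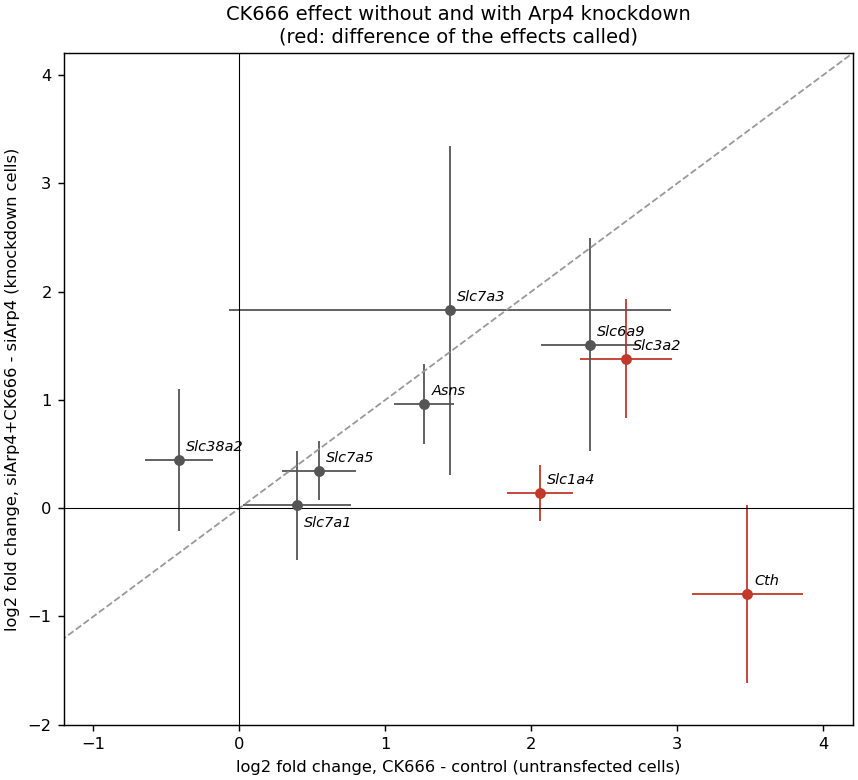
Log2 fold change of CK666 in untransfected cells (horizontal) against that in Arp4 knockdown cells (vertical) for 9 genes, with 95% intervals (normal, from the SE), a dashed line of equal effects, and red for the 3 genes whose interaction was called. Cth lies at 3.48 and −0.79, Slc1a4 at 2.06 and 0.14, and Slc3a2 at 2.65 and 1.38, all below the line.

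Other amino acid genes were read in 4 lists, chosen like the 10 genes with earlier results of these data known. Their counts are set against the shares of all tested genes called in either direction, 11.0% with CK666, 9.12% with CytoD, 11.8% between the drugs, 16.2% in siArp4, 20.4% in siArp4+CK666 against siControl, 5.75% within knockdown cells and 4.42% in the interaction. Of 32 further amino acid transporters, 22 were tested with CK666, and 4 were higher and 1 lower, with a median log2 fold change of −0.03. Slc7a11, the light chain of the cystine and glutamate exchanger that pairs with Slc3a2, rose from 98.3 ± 4.5 to 1374 ± 418 normalized counts (SD, n = 3; log2 fold change 3.80, adjusted p = 2.52e-50). Slc1a5, the glutamine carrier ASCT2, rose by a log2 value of 1.28 (adjusted p = 2.99e-56) and the lysosomal carrier gene Slc38a7 by 1.02 (adjusted p = 1.28e-12). With CytoD 3 were higher and 2 lower of 20 (median 0.14), among them Slc7a11 at −1.10 (adjusted p = 0.000362) and Slc43a2, a leucine carrier, at 1.23 (adjusted p = 4.05e-10). edgeR called 2 of 19 in the CytoD comparison. Slc7a11 was the transporter of this list that moved as the called carriers did in both comparisons. Between the drugs 2 transporters of 22 were higher with CK666 and 3 lower (median −0.317).

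In the second experiment 3 of 21 transporters were higher and 1 lower in siArp4, among them Slc7a2, a cationic carrier like Slc7a1, at 1.60 (adjusted p = 2.91e-05), and the taurine carrier Slc6a6 at −2.32 (adjusted p = 3.72e-06). In siArp4+CK666 4 were higher and 1 lower against siControl. Both counts are near the shares over all genes, 16.2% and 20.4%. Within knockdown cells 2 of 20 were higher with CK666, Slc7a11 at 2.97 (adjusted p = 7.74e-18) and Slc6a6 at 1.64 (adjusted p = 0.00392), and edgeR called 1 of 19. In the interaction DESeq2 called 0 of 18 (7 at an unadjusted p under 0.05) and edgeR 0 of 21.

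Of 21 enzymes of asparagine, aspartate, glutamate, proline and arginine metabolism, 18 were tested in the first experiment. With CK666 2 were higher (median 0.12), the transaminases Gpt2 at 2.44 (adjusted p = 2.50e-117) and Got1 at 1.60 (adjusted p = 4.42e-31). With CytoD 2 were lower (median −0.15), the branched-chain transaminase Bcat1 at −1.64 (adjusted p = 1.10e-58) and Aldh18a1, which starts proline synthesis, at −1.42 (adjusted p = 1.80e-27). Both counts of 2 of 18 are near the shares over all genes, 11.0% and 9.12%. Between the drugs 6 of 18 were higher with CK666 (median 0.045). In siArp4 and again in siArp4+CK666 1 was higher and 3 lower of 19, with Ass1, an enzyme of arginine synthesis, at −2.06 and −1.94 (adjusted p = 7.29e-30 and 7.29e-27). These counts too are near the 16.2% and 20.4% of all genes. Within knockdown cells 1 rose with CK666, Gpt2 at 1.39 (adjusted p = 3.73e-07). The interaction was called for 3, all lower, Got1 at −1.61 (adjusted p = 8.14e-08), Pycr1 at −1.18 (adjusted p = 2.33e-06) and Gpt2 at −1.06 (adjusted p = 3.47e-05).

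Around cysteine, 23 genes of the methionine cycle, cysteine breakdown and glutathione metabolism were listed. With CK666 5 of 18 were higher (median 0.41). They included Chac1, which degrades glutathione, at 3.01 (adjusted p = 1.24e-78) and Gclm, a subunit of the enzyme that begins glutathione synthesis, at 2.24 (adjusted p = 2.26e-110), so genes of both synthesis and breakdown rose. With CytoD 2 were higher and 1 lower (median 0.01). Csad was among the higher at 1.28 (adjusted p = 8.97e-13), and the lower gene was Chac1 at −2.15 (adjusted p = 4.27e-25). In siArp4 1 of 19 was higher and 2 were lower, near the 16.2% of all genes, and edgeR called 1 of 18. In siArp4+CK666 5 were higher and 1 lower against siControl, and 5 were higher against siArp4, among them Gclm at 2.15 (adjusted p = 2.14e-36), Chac1 at 1.63 (adjusted p = 4.59e-08) and Gclc, the other subunit of that enzyme, at 1.50 (adjusted p = 5.69e-09). edgeR called 3 of 18 in that last comparison. The interaction was called lower for 2 of 18, Sqor at −1.55 (adjusted p = 2.36e-11) and Chac1 at −1.39 (adjusted p = 1.95e-05). Gclm was thus called with CK666 in untransfected and in knockdown cells. Gclc, at 0.59 (adjusted p = 1.48e-05) in untransfected cells, was called in knockdown cells alone, and its interaction of 0.91 (adjusted p = 0.00243) did not reach the fold minimum.

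Of 26 regulators of amino acid sensing and the integrated stress response, all tested, 10 were higher with CK666 (median 0.55), led by Trib3 at 4.66 (adjusted p = 2.35e-169), Ddit3, which encodes CHOP, at 4.32 (adjusted p = 4.60e-105), and Atf3 at 4.25 (adjusted p = 1.66e-72). With CytoD 2 were higher and 4 lower (median −0.05), with Trib3 at −2.05 (adjusted p = 2.20e-24), Myc at −1.77 (adjusted p = 5.16e-41) and Sesn3 at 1.59 (adjusted p = 4.94e-15). In siArp4 3 were higher and 2 lower, near the 16.2% of all genes, with Myc at 2.07 (adjusted p = 4.61e-27), and edgeR called 3. In siArp4+CK666 7 were higher and 2 lower against siControl, and 5 were higher against siArp4, led by Atf3 at 3.51 (adjusted p = 6.32e-48), Trib3 at 2.67 (adjusted p = 1.75e-14) and Atf5 at 2.16 (adjusted p = 5.44e-21), where edgeR called 3. The interaction was called higher for 1 and lower for 5, among them Ppp1r15a at −3.31 (adjusted p = 0.000139), Ddit3 at −2.70 (adjusted p = 1.45e-07) and Trib3 at −1.99 (adjusted p = 2.93e-06).

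**Figure D5:**
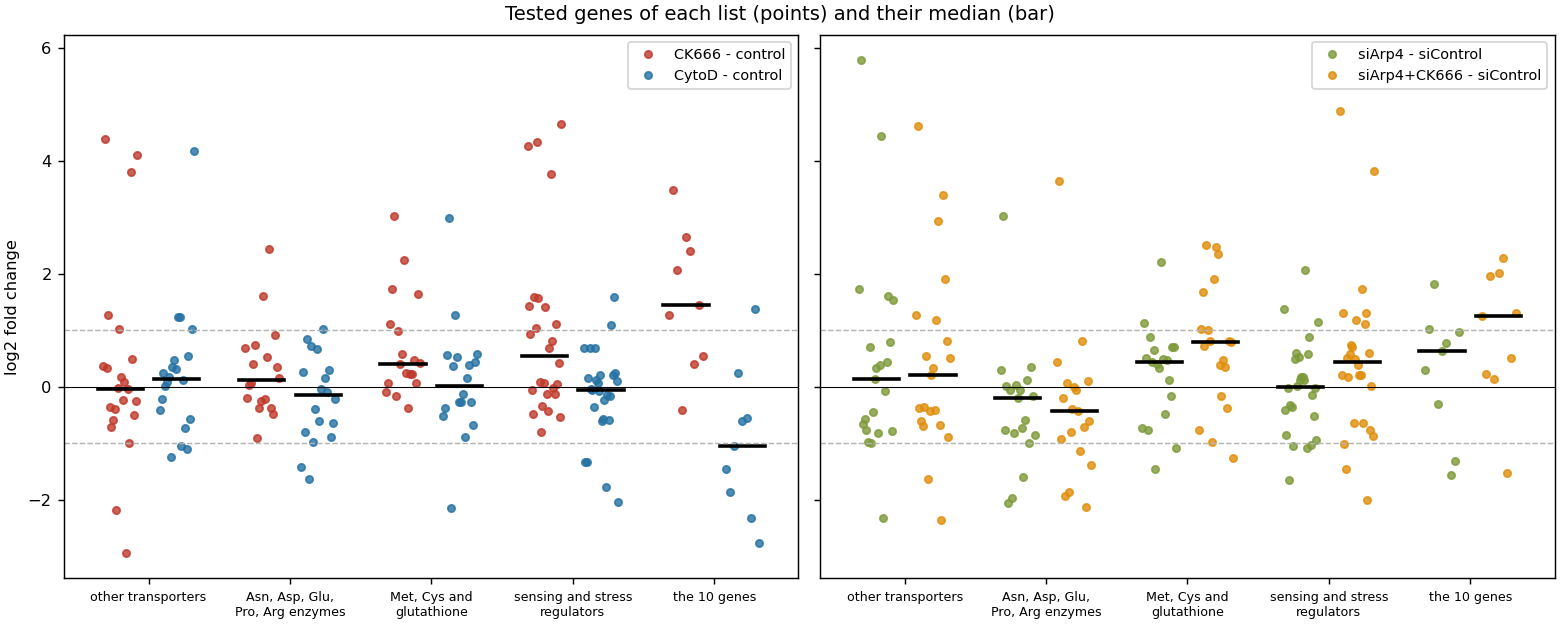
Log2 fold changes of the tested genes of the 4 lists and of the 10 genes described here, with 1 point per gene and a bar at the median, for CK666 and CytoD against control (left) and siArp4 and siArp4+CK666 against siControl (right), and dashed lines at a log2 fold change of 1 in either direction. The 9 tested genes at the far right of the left panel have medians of 1.44 and −1.04, while the medians of the lists in that panel lie between −0.15 and 0.55.

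The gene nearest to each in its pattern was found by the Euclidean distance between the 4 log2 fold changes against the own control (CK666, CytoD, siArp4 and siArp4+CK666) over 9852 genes averaging at least 100 normalized counts in both experiments. The distance was 0.099 for Slc38a2 and Smarcc2, 0.515 for Slc6a9 and Apobr, 0.628 for Asns and Qtrt2, 0.655 for Slc3a2 and Hemk1, 0.809 for Slc1a4 and Ero1l, 0.978 for Slc7a5 and Ptgs2, and 0.982 for Slc7a1 and Srm. For Cth the closest gene, Cyb5r1, lay 2.02 away and had a log2 fold change of −0.53 in siArp4 where Cth had 1.02. Cth itself averaged 23.9, 47.7 and 27.5 normalized counts in siControl, siArp4 and siArp4+CK666, below the minimum set for the other genes. Its log2 fold changes against siControl had SE of 0.425 and 0.439 and were not called, so its place is imprecise. Slc7a3 and Cbs are left out because of their low counts.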

How the data were processed

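RNA was sequenced by an unstranded service. Salmon 1.2.1 and GENCODE vM25 (GRCm38) were used by the authors, who deposited unscaled estimated counts for each gene. All 18 columns matched a sample. Estimated counts were rounded, shifting no library total by more than 277. Symbols and coordinates came from GENCODE vM21 of the same build (54094 identifiers matched, 253 did not). Where genes on opposite strands share exonic bases, reads from those bases cannot be told apart, and reads of near-identical copies may be split.

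Each experiment's 9 libraries were fitted together by group with DESeq2 1.42.0 in R 4.3.3 (Wald test, two-sided, defaults, independent filtering at 0.01, unshrunken fold changes), as the study's methods name it. Calls needed an absolute log2 fold change over 1 and an adjusted p below 0.01. The interaction used all 18 libraries. Normalized counts were divided by the size factors of their experiment. Intervals of 95% are normal, from the SE, and precision is limited by 3 libraries per group. The procedure was tested on simulated data. Alternatives were edgeR 4.0.16, TMM factors, a filter of 10 counts in 3 libraries, other fold rules, a replicate block, 1 fit of all libraries, Gm20388 added to Slc7a5, and each library left out.

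From each other list the text names at most the 3 called genes per comparison with the largest absolute log2 fold change among genes averaging at least 100 normalized counts. Gclc, called in knockdown cells, is also given in comparisons where it was not called. The genes and lists were chosen with earlier results of these data known.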

Additional observations from a re-analysis of the deposited data

Results flagged for a closer look

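The effect of CK666 differed between untransfected and Arp4 knockdown cells for 3 of 9 tested genes in the DESeq2 interaction contrast over 18 libraries. All 3 had a negative value. Of all tested genes 4.42% were called, and 2.52% with a negative value, which can be a smaller rise or a larger fall. On the log2 scale the effect in knockdown cells minus that in untransfected cells was −4.27 for Cth, −1.92 for Slc1a4 and −1.27 for Slc3a2. Cth had 3.48 without and −0.79 with knockdown, Slc1a4 had 2.06 and 0.14, and Slc3a2 had 2.65 and 1.38. The Slc3a2 call was lost with edgeR (adjusted p = 0.0175) and without any of 5 single libraries. Transfection, experiment and loss of Arp4 cannot be told apart in these values.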

How the results depend on the processing

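No call of the 10 genes changed direction under any alternative run. Under alternatives that kept all libraries 510 single-gene values kept their side of the thresholds, 10 gained a call and 13 lost it. With a library left out 710 kept it, 4 gained and 6 lost. The number of genes called moved by over 1.5 times as follows. Tested against a log2 fold change of 1 it was 3 for CytoD against control, 1 for siArp4 and 2 for siArp4+CK666 against siControl, and 0 for siArp4+CK666 against siArp4 (also 0 at an unadjusted p under 0.05). That last comparison gave 2 with no fold minimum, 0 with edgeR (5 at an unadjusted p under 0.05, with Slc3a2 at an adjusted p of 0.0109) and 2 with all 18 libraries in 1 fit. With a library left out the number ran from 2 to 4 for siArp4 against siControl (4 without siControl replicate 1), from 1 to 2 for siArp4+CK666 against siArp4, from 4 to 5 for CytoD and from 2 to 3 for the interaction, and stayed at 5, 7 and 6 for CK666 against control, CK666 against CytoD and siArp4+CK666 against siControl. The Slc3a2 interaction had adjusted p-values of 0.011 to 0.0193 without control replicate 3, CK666 replicate 1, siArp4 replicate 1 or 2, or siArp4+CK666 replicate 1. Against a log2 fold change of 1 the calls lost were Asns with CK666, Slc1a4 and Cth with CytoD, and Slc7a1 in siArp4. In siArp4+CK666 against siControl those of Slc7a5, Slc7a1, Slc6a9 and Asns were lost. Slc3a2 lost its call in siArp4+CK666 against siArp4 and in the interaction. The cause of these shifts was not tested, apart from the fold rules, which are stricter or looser by construction.

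Same-numbered libraries deviated together only in part (correlations of −0.345 to 0.603), so the numbers were not taken as pairs. With the replicate block the counts were 5, 5, 7, 2, 6, 1 and 3 in the order CK666, CytoD and CK666 against CytoD, siArp4, siArp4+CK666, siArp4+CK666 against siArp4, and interaction, the same as without it, and over all genes 1497, 1172, 1687, 2390, 3091, 769 and 584. Over all genes in that order the main calls were 1599, 1251, 1778, 2494, 3150, 811 and 597. They were 4381, 4067, 4779, 3867, 4602, 1395 and 1056 with no fold minimum, and 349, 147, 438, 431, 792, 145 and 58 tested against a log2 fold change of 1. edgeR called 466 for siArp4+CK666 against siArp4 and 384 for the interaction. Low counts limit Slc7a3 and Cbs. Lengths from the union of exons lowered most levels per length by more than 1 SD.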
